A study of Mus musculus with 6 samples.

Results

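Transcripts of 38 macrophage and other leukocyte genes were examined in laser-captured tissue of the developing molar furcation. The genes were taken by name as markers of blood-borne and tissue-resident immune cells. They fall into 16 macrophage genes, 4 genes of class II antigen presentation, 7 neutrophil genes and 11 genes grouped here as pan-leukocyte. Several of these 11, such as Tyrobp, Cybb and Ncf1, are genes of myeloid cells or phagocytes rather than of all leukocytes. A row was found for 36 of the 38 genes among the 23594 genes of the table, and 35 of these were among the 20114 genes that passed the expression filter. The macrophage genes Lyz1 and Ccl4 were not analysed here. The tissue was the apical part of the furcation development region, where the roots of a multi-rooted tooth divide, cut by laser-capture microdissection from mandibular first molars at PN4.5 (postnatal age 4.5 days). The 3 control libraries came from C57BL/6 mice labelled wild type, and the 3 Lhx6-/- libraries from C57BL/6 littermates homozygous for the Lhx6-CreER knock-in allele, which removes the function of Lhx6, a LIM homeobox transcription factor of the jaw and dental mesenchyme. The allele is carried by every cell of these animals, leukocytes included. Each library combined the tissue of several molars, and neither the animals of a library nor their sex were labelled, so the p-values measure the spread between these libraries.

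Macrophages settle in the dental mesenchyme, the follicle and the alveolar bone, where they clear dying cells, and close relatives of theirs fuse into the osteoclasts that open the path for a growing tooth. Neutrophils are made in the marrow and circulate in the blood, and their granules are filled in sequence during maturation, the azurophil granules with myeloperoxidase and elastase first, then the specific granules with lactoferrin and cathelicidin. The cytosol of mature neutrophils is rich in S100a8 and S100a9, which pair to form calprotectin.

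The libraries held 60132323 to 76157433 estimated counts, and levels are given as CPM, the counts of a gene per 1000000 counts of its library, scaled with the TMM factors of edgeR, which lay between 0.977 and 1.04. Lhx6 itself stood at 18.2 to 27.8 CPM in the control and 9.82 to 12.8 CPM in the Lhx6-/- libraries, without overlap. Genes of dental mesenchyme (Col1a1, 64844 to 85297 CPM over the 6 libraries) and of ameloblasts (Amelx, 83288 to 109633 CPM) were abundant. Transcripts of enamel epithelium were thus in the libraries beside those of mesenchyme. Skeletal muscle genes were present as well, such as Acta1 at 492 to 886 CPM and Myh8 at 394 to 601 CPM over the 6 libraries. Whether such transcripts came from cells of the cut area or were carried over was not tested. The dental epithelial keratin genes Krt14, Krt5 and Krt17 met the rule described below and were lower in Lhx6-/- tissue, with log2 fold changes of -0.62, -0.72 and -1.03. The libraries also differed in genes of the sex chromosomes. Xist ranged from 411 to 792 CPM in the control libraries and was at 290, 0.23 and 0.053 CPM in Lhx6-/- replicates 1, 2 and 3, while the Y-linked Kdm5d ranged from 3.55 to 11.5 CPM and from 14.1 to 21.7 CPM. The part of these differences in the results that follow was not tested.

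Leukocyte transcripts were present in every library at low to moderate levels. Genes were compared roughly by CPM per kilobase of exon (mean of 6 libraries). The length is the union of all annotated exons, 18313 bases for Ptprc and 522 for S100a9. It can exceed the length of the expressed transcript, which lowers the value. On this scale the highest of the 36 genes was S100a9 at 107, followed by Cd68 at 68.5, Tyrobp at 64.9, Ngp at 60.1 and S100a8 at 53.3. The pan-leukocyte gene Laptm5, a lysosomal membrane protein, stood at 41.3, and Lyz2, the lysozyme of myeloid cells, at 39.2. The class II gene Cd74 was at 12.1 and the other 3 class II genes between 1.38 and 2.47. Ptprc, which encodes the surface phosphatase CD45 carried by leukocytes, was at 0.556, Cd163 at 0.419 and the chemokine gene Ccl3 at 0.152. Ccl3 had 2 to 16 counts per library and was not tested.

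**Figure D1:**
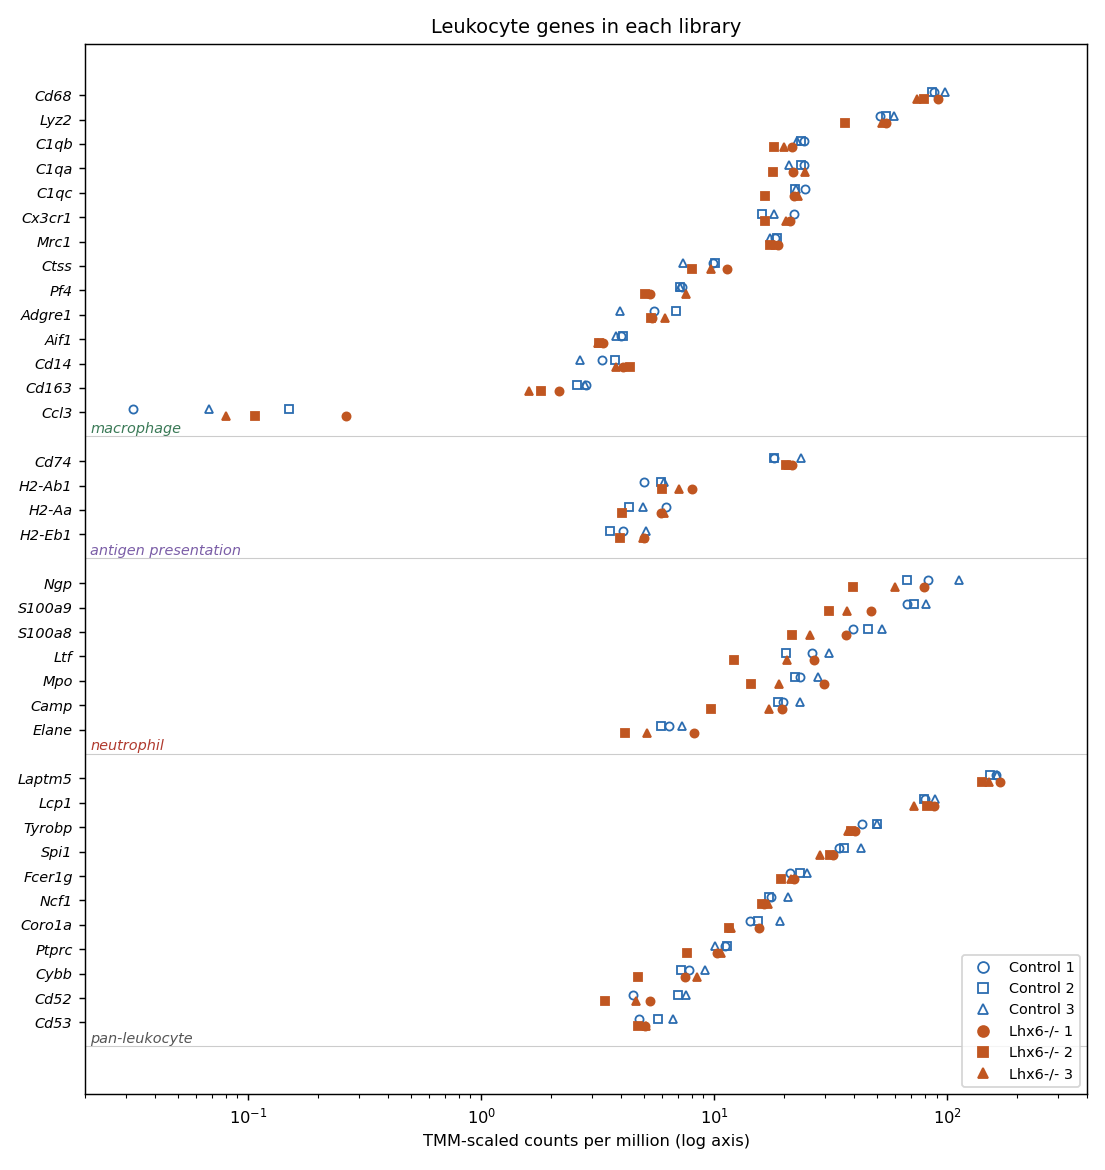
Level of each of the 36 leukocyte genes in TMM-scaled CPM (log axis) in the 3 control libraries (open blue) and the 3 Lhx6-/- libraries (filled orange), 1 point per library, grouped by role and ordered by mean level. Points of both genotypes lie close together for most genes, and the orange points sit to the left of the blue ones for S100a9, S100a8 and Tyrobp.

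To find out whether the leukocyte genes differed between genotypes, control and Lhx6-/- libraries were compared with edgeR's quasi-likelihood test, with a rule that asked for a change of 1.5-fold or more together with an unadjusted p under 0.05. It was met by 2 of the 35 tested genes, S100a8 and S100a9, both lower in Lhx6-/- tissue. Of all tested genes 3.28% met it, 1.71% lower and 1.58% higher in Lhx6-/- tissue. S100a9 alone had an adjusted p under 0.05 (edgeR with Benjamini-Hochberg adjustment), as did 0.403% of all genes in either direction and 0.0795% that were lower. The neutrophil genes had the lowest median log2 fold change at -0.42, against -0.15 for the 13 tested macrophage genes, -0.21 for the pan-leukocyte genes, 0.10 for the class II genes and -0.0019 for all tested genes. No list was tested as a list.

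Estimates below 0 were more common than above among these genes. A log2 fold change below 0 was found for 26 of the 35 genes, beside 50.3% of all tested genes, and included 7 of 7 neutrophil and 11 of 11 pan-leukocyte genes. The 3 control and 3 Lhx6-/- libraries did not overlap for 9 genes, 8 of them lower and 1 (Cd14) higher in Lhx6-/- tissue, beside 15.5% of all tested genes in either direction and 7.68% that were lower. At an unadjusted p under 0.05 in edgeR there were 8 genes, each of them lower, beside 9.81% of all tested genes in either direction and 5.07% that were lower. For 9 of 13 macrophage, 3 of 4 class II and 7 of 11 pan-leukocyte genes, but 0 of 7 neutrophil genes, the approximate 95% interval of the fold change lay within 1.5-fold in either direction, as it did for 10909 of the 20114 tested genes. These genes were read in the same 6 libraries, so the counts are not of independent genes. Without Lhx6-/- replicate 1 the rule was met by 7 leukocyte genes, beside 2.89% of all genes in that fit, and 16 did not overlap, beside 23.8%. Without Lhx6-/- replicate 2 the rule was met by 1, beside 2.97%, and the median over the 35 genes moved from -0.18 to -0.05.

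**Figure D2:**
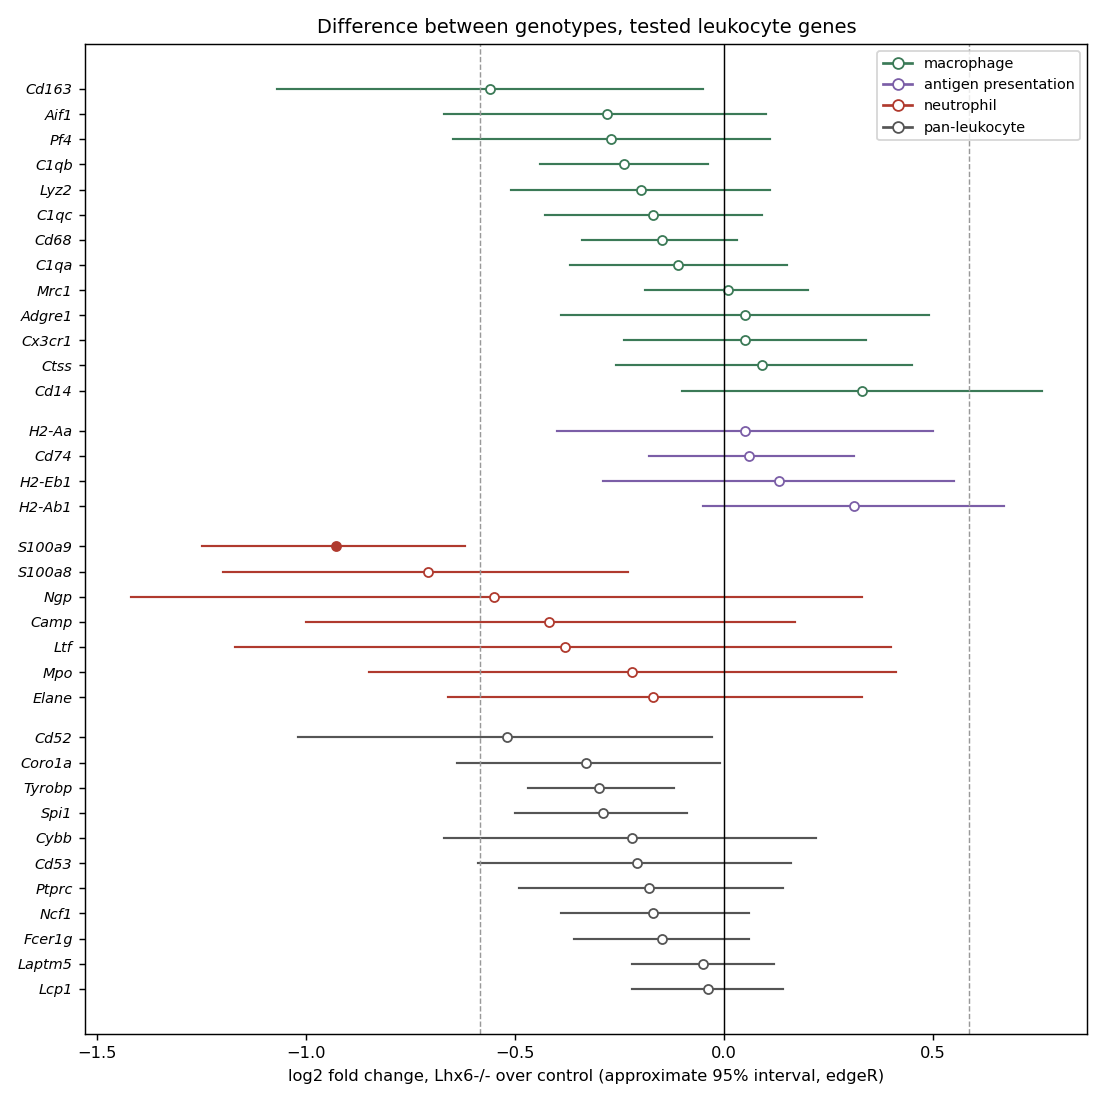
Log2 fold change, Lhx6-/- over control, of the 35 tested leukocyte genes with its approximate 95% interval from edgeR (n = 3 libraries per group), coloured by role; dashed lines mark 1.5-fold and the filled point an adjusted p under 0.05. The intervals of S100a9 and S100a8 lie wholly below 0, the other 5 neutrophil intervals are wide and include 0, and the 4 class II estimates lie between 0.05 and 0.31.

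The calprotectin genes stood at lower levels in the 3 Lhx6-/- libraries, and of these genes only S100a9 had an adjusted p under 0.05. S100a9 (chr3:90692632-90695721 on mm10) was at 67.4, 72.0 and 80.9 CPM in control replicates 1, 2 and 3, and at 47.2, 31.2 and 37.1 CPM in Lhx6-/- replicates 1, 2 and 3. The groups did not overlap, and the lowest control library stood above the highest Lhx6-/- library. The mean went from 73.4 ± 6.82 CPM to 38.5 ± 8.09 CPM (SD, n = 3 each), which is 52.4% of the control level. In edgeR the log2 fold change was -0.93 (standard error 0.14, approximate 95% interval -1.25 to -0.62, Benjamini-Hochberg adjusted p = 0.0312). S100a8, its partner (chr3:90668978-90670035), was at 39.3, 45.7 and 52.7 CPM in the control libraries and at 36.7, 21.5 and 25.9 CPM in the Lhx6-/- libraries. Here too the groups did not overlap, but Lhx6-/- replicate 1 lay close to the lowest control library. The log2 fold change of S100a8 was -0.71 (standard error 0.20, interval -1.20 to -0.23), with an unadjusted p of 0.0106 and an adjusted p of 0.307 in edgeR. The adjusted p of S100a9 rose to 0.164 without control replicate 2, 0.119 without control replicate 3 and 0.135 without Lhx6-/- replicate 3 (edgeR). S100a8 no longer met the rule without Lhx6-/- replicate 2, where its log2 fold change was -0.55. Without control replicate 2 it only just met the rule, with an unadjusted p that rounds to 0.05 in edgeR. DESeq2 gave S100a8 an adjusted p of 0.0022.

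The granule genes overlapped between the genotypes. Ngp, neutrophilic granule protein, was at 82.6, 67.3 and 112 CPM in the control libraries and at 79.9, 39.5 and 59.7 CPM in the Lhx6-/- libraries. The groups overlapped, and the log2 fold change was -0.55 with an interval of -1.42 to 0.33. Camp, which encodes cathelicidin, and Ltf, which encodes lactoferrin, had log2 fold changes of -0.42 and -0.38. The azurophil genes Mpo (myeloperoxidase) and Elane (neutrophil elastase) had log2 fold changes of -0.22 and -0.17. None of these 5 met the rule, with unadjusted p-values of 0.136 to 0.473 in edgeR. Added up, the 5 granule genes came to 158, 134 and 201 CPM in the control libraries and 164, 79.9 and 122 CPM in the Lhx6-/- libraries. Lhx6-/- replicate 1 was within the control range, and replicates 2 and 3 were below it.

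Ratios of S100a9 to other neutrophil genes of the same library were read after the values were seen, and not all of them separated the groups. The ratio of S100a9 to Mpo was 2.89, 3.24 and 2.91 in the control libraries and 1.59, 2.16 and 1.95 in the Lhx6-/- libraries. The ratio of S100a9 to S100a8 was 1.72, 1.58 and 1.53 in control and 1.29, 1.45 and 1.43 in Lhx6-/- tissue. These did not overlap between the groups, while S100a9 over Ngp did, at 0.73 to 1.07 in control and 0.59 to 0.79 in Lhx6-/- tissue. Ngp over Mpo was 3.03 to 4.01 in control and 2.69 to 3.14 in Lhx6-/- tissue, with overlap.

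**Figure D3:**
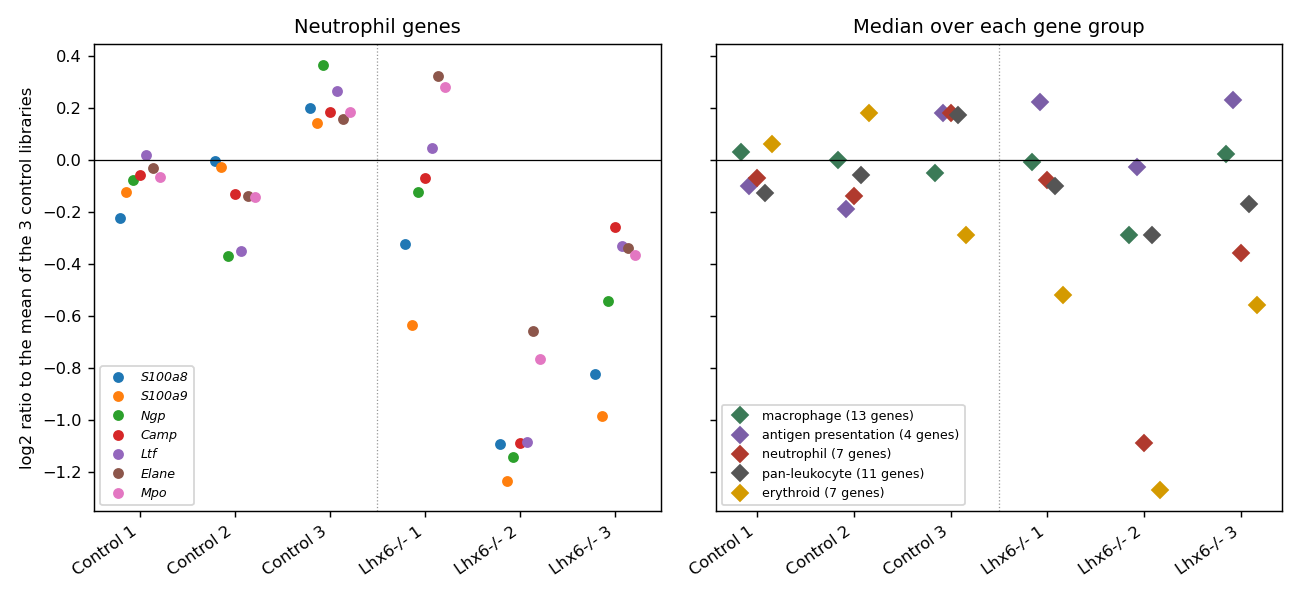
Left, log2 ratio of each of the 7 neutrophil genes to its mean over the 3 control libraries, by library; right, the median of that ratio over the genes of each role and over 7 erythroid genes. Lhx6-/- replicate 2 is lowest for the neutrophil median (-1.09) and for the erythroid median (-1.27), while the macrophage median of that library is -0.29.

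The libraries of 1 genotype differed among themselves. Lhx6-/- replicate 2 was the lowest of the 6 libraries for 7 of 7 neutrophil genes and 8 of 11 pan-leukocyte genes, and for 6 of 13 macrophage genes. Control replicate 3 was the highest for 5 of 7 neutrophil and 8 of 11 pan-leukocyte genes. The median over the neutrophil genes, relative to the control mean on the log2 scale, was -0.07, -0.14 and 0.18 in the control libraries and -0.08, -1.09 and -0.36 in the Lhx6-/- libraries. For the neutrophil genes the spread was wider in the mutants. The coefficient of variation of the 7 neutrophil genes was 9.28% to 25.8% over the control libraries and 21.0% to 37.2% over the Lhx6-/- libraries. For genes of the other roles it went either way, as for Cd74 (16% in control, 2.91% in Lhx6-/-) and Lyz2 (6.95% and 20.7%). In tissue taken in bulk, fewer cells of a type and less RNA per cell cannot be told apart.

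Genes of red blood cells were low in the same mutant library. Of 8 erythroid genes listed, 7 were tested, and 7 of 7 had a log2 fold change below 0, with a median of -0.73. The rule was met by 3 of them (Hbb-bs, Hba-a1 and Alas2), of which Hba-a1 overlapped between the groups. Of all tested genes 50.3% were below 0, and 1.71% met the rule with a lower level. Hbb-bs, an adult beta globin, ranged from 1033 to 1541 CPM in control and from 622 to 856 CPM in Lhx6-/- libraries (log2 fold change -0.73, adjusted p = 0.162 in edgeR), and Alas2, the erythroid enzyme of haem synthesis, had the same log2 fold change of -0.73. Summed over the list, the erythroid level was 3037 to 3765 CPM in control and 1610 to 2405 CPM in Lhx6-/- tissue. None of its genes was at 0. Lhx6-/- replicate 2 was the lowest library for 7 of 7 of these genes, while control replicate 3, the highest for most neutrophil genes, had the lowest erythroid median of the controls at -0.29. The endothelial list had 9 of 9 estimates above 0, beside 9996 of the 20114 tested genes. Its summed level was 363 to 370 CPM in control and 406 to 471 CPM in Lhx6-/- tissue. None of its genes was at 0. Cldn5, a tight junction protein of endothelium, met the rule at 13.6 to 15.6 CPM in control and 21.8 to 24.0 CPM in Lhx6-/- tissue (log2 fold change 0.64, adjusted p = 0.0140 in edgeR). The part of the erythroid and endothelial levels in the neutrophil result was not tested.

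The 250 bases before the start of S100a9 and C1qb, and the part of that stretch that lies before the annotated gene of S100a8, are shown because these are the neutrophil genes that met the rule and the macrophage gene with the smallest p. C/EBP and PU.1 are the transcription factor families best known from granulocyte and macrophage genes. Capitals mark letters that match a loose C/EBP motif, written TTNNGNAA, or TTNCNNAA where it lies on the other strand. They also mark the PU.1 motif AGGAAGT, which reads as ACTTCCT where it lies on the other strand. The letters of both motifs can overlap, which they do not here. The sequences are those of RefSeq on GRCm38.p6, written 5′ to 3′ on the strand of the gene.
S100a9, chr3:90695722-90695971, minus strand: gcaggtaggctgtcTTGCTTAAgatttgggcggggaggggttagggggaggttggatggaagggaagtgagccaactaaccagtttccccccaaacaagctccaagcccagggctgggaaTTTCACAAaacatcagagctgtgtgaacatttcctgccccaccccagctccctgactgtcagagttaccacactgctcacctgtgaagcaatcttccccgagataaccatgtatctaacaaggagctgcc
S100a8, chr3:90668821-90668977, plus strand: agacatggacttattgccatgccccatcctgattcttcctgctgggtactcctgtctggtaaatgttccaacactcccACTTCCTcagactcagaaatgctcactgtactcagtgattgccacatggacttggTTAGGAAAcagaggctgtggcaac
C1qb, chr4:136886201-136886450, minus strand: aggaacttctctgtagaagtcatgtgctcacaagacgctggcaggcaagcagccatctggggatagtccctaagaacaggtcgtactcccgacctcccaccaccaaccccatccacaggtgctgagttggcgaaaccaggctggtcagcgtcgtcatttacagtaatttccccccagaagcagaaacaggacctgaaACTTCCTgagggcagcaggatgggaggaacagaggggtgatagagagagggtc
S100a9 held 2 matches to the C/EBP letters and 0 to the PU.1 letters, S100a8 held 1 of each, and C1qb held 1 match to the PU.1 letters. In windows from 250 bases before to 50 bases after the start, 13 of the 24 leukocyte genes with a window near their annotated start held the C/EBP letters and 10 held the PU.1 letters. Of all 32544 windows, 40.7% held the first and 9.27% the second. By role, the PU.1 letters were in 6 of 10 macrophage, 3 of 7 neutrophil, 1 of 5 pan-leukocyte and 0 of 2 class II genes. A match describes the letters and does not show binding.

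The 13 tested macrophage genes had estimates from -0.56 to 0.33, and none met the rule. Cd68, the lysosomal protein macrosialin, was at 88.2, 86.4 and 97.5 CPM in the control libraries and at 91.2, 79.4 and 74.2 CPM in the Lhx6-/- libraries. These overlapped, and the log2 fold change was -0.15 with an interval of -0.34 to 0.03. Lyz2 was at 51.4, 54.9 and 59.1 CPM in control and at 54.8, 36.6 and 52.6 CPM in Lhx6-/- tissue, where replicate 2 stood apart below the others. Lyz2 and Lyz1 are close copies whose reads the counting may have split, so the level of Lyz2 is uncertain.

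C1qa, C1qb and C1qc encode the 3 chains of complement C1q, which macrophages make. C1qa was at 24.4, 23.7 and 21.0 CPM in the control libraries and at 21.8, 17.8 and 24.5 CPM in the Lhx6-/- libraries, with overlap. C1qb was at 24.2, 23.5 and 22.7 CPM in control and at 21.6, 18.1 and 19.9 CPM in Lhx6-/- tissue. Its groups did not overlap, and the log2 fold change was -0.24 (interval -0.44 to -0.04, unadjusted p = 0.0227, adjusted p = 0.402 in edgeR). The 3 chains had log2 fold changes of -0.11, -0.24 and -0.17. Their sum was 66.2 to 73.1 CPM in control and 52.5 to 67.2 CPM in Lhx6-/- tissue, and overlapped.

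The receptors of tissue macrophages had estimates on both sides of 0. Mrc1, the mannose receptor, was at 17.3 to 18.6 CPM in control and 17.3 to 18.8 CPM in Lhx6-/- tissue (log2 fold change 0.01, interval -0.19 to 0.20). Cx3cr1, the fractalkine receptor, and Adgre1, the F4/80 antigen, each had a log2 fold change of 0.05. Cd163, the scavenger receptor for haemoglobin bound to haptoglobin, had the lowest estimate of the macrophage genes. It was at 2.57 to 2.81 CPM in control and 1.60 to 2.16 CPM in Lhx6-/- tissue, without overlap, with a log2 fold change of -0.56 (interval -1.07 to -0.05) and an adjusted p of 0.463 in edgeR. Cd14, the co-receptor for lipopolysaccharide, was the highest, with 2.65 to 3.74 CPM in control and 3.78 to 4.35 CPM in Lhx6-/- tissue and a log2 fold change of 0.33 (interval -0.10 to 0.76). Aif1, the actin-binding protein IBA1, had a log2 fold change of -0.28, the chemokine gene Pf4 -0.27 and Ctss, the lysosomal protease cathepsin S, 0.09, and each interval included 0.

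The 4 genes of class II antigen presentation had estimates above 0 that their spread does not tell from 0. Cd74, the invariant chain, was at 18.1, 18.1 and 23.7 CPM in control and at 21.5, 20.3 and 20.7 CPM in Lhx6-/- tissue. H2-Aa was at 6.19, 4.31 and 4.94 CPM in control and at 5.89, 4.01 and 6.11 CPM in Lhx6-/- tissue. H2-Eb1 was at 4.05, 3.56 and 5.09 CPM in control and at 4.99, 3.96 and 4.93 CPM in Lhx6-/- tissue. For these 3 genes the Lhx6-/- values lay among or overlapped the control values, and the log2 fold changes were 0.06, 0.05 and 0.13. H2-Ab1, the class II beta chain of I-A, was at 4.98, 5.90 and 6.12 CPM in control and at 8.02, 5.98 and 7.05 CPM in Lhx6-/- tissue. Lhx6-/- replicates 1 and 3 lay above the controls, and the log2 fold change was 0.31 (interval -0.05 to 0.67, adjusted p = 0.603 in edgeR).

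The 11 pan-leukocyte genes had estimates from -0.52 to -0.04, and none met the rule. Tyrobp encodes DAP12, the adaptor that carries the signal of activating receptors in myeloid cells. It was at 43.1, 50.2 and 50.0 CPM in the control libraries and at 40.2, 38.6 and 37.7 CPM in the Lhx6-/- libraries. The groups did not overlap, and the mean went from 47.8 ± 4.07 CPM to 38.8 ± 1.30 CPM (SD, n = 3 each). The log2 fold change was -0.30 (standard error 0.08, interval -0.47 to -0.12), which is less than 1.5-fold over its whole interval, with an unadjusted p of 0.00311 and an adjusted p of 0.214 in edgeR.

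Fcer1g, the common Fc receptor gamma chain, works beside Tyrobp. Its level was 21.2, 23.3 and 25.1 CPM in control and 22.1, 19.3 and 21.4 CPM in Lhx6-/- tissue, with overlap. Laptm5 was at 162, 153 and 163 CPM in control and at 169, 141 and 151 CPM in Lhx6-/- tissue. The log2 fold changes of these 2 genes were -0.15 and -0.05.

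Spi1 encodes PU.1, the factor whose motif is marked above. It ranged from 34.4 to 42.7 CPM in control and from 28.5 to 32.4 CPM in Lhx6-/- tissue, without overlap (log2 fold change -0.29, interval -0.50 to -0.09, adjusted p = 0.299 in edgeR). Coro1a, an actin regulator of leukocytes, and Cd52, a small anchored glycoprotein, had log2 fold changes of -0.33 and -0.52 with unadjusted p-values of 0.043 and 0.0407 in edgeR. Cd52 was at 3.39 to 5.29 CPM in Lhx6-/- and 4.48 to 7.56 CPM in control tissue, with overlap. Ptprc had a log2 fold change of -0.18 and an interval of -0.49 to 0.14. Lcp1, the actin bundler plastin, was at -0.04, and the tetraspanin gene Cd53 at -0.21 on the same scale. Cybb and Ncf1, subunits of the phagocyte NADPH oxidase, were at -0.22 and -0.17, and Cybb lies on the X chromosome. Exons of Coro1a, Cd52, Ncf1, Lcp1, Cx3cr1 and Mpo overlap a gene on the opposite strand, and since the strand setting of the counting was not given in the sources used here, reads of the partners cannot be told apart.

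Other genes of the same cells were read from lists of related genes. Beside the counts that follow, 50.3% of all tested genes lay below 0 and 3.28% met the rule. Of 23 further macrophage genes, 6 were above and 17 below 0, and their median was -0.09 on the log2 scale. None of them met the rule. Csf1r, the receptor for the survival factor CSF1, was at 146 to 151 CPM in control and 138 to 160 CPM in Lhx6-/- tissue (log2 fold change 0.02, interval -0.14 to 0.18). Osteoclasts carry several of the same genes. Acp5 (tartrate-resistant acid phosphatase) and Ctsk (cathepsin K) were at 1062 to 1287 CPM and 1084 to 1280 CPM over the 6 libraries, with log2 fold changes of -0.12 and -0.11, and 0 of 10 osteoclast genes met the rule.

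Of 14 further neutrophil genes, 13 were below 0 and 1 above, with a median of -0.34. The rule was met by Cebpe, the C/EBP factor of late granulocyte maturation, with 0.803, 0.913 and 1.62 CPM in control and 0.818, 0.282 and 0.457 CPM in Lhx6-/- tissue. The groups overlapped, and the log2 fold change was -1.10 (interval -2.16 to -0.05, adjusted p = 0.488 in edgeR). Mmp9, which osteoclasts make as well as neutrophils, made up most of the summed CPM of this list at 1037 to 1354 CPM and had a log2 fold change of -0.11. The 5 further genes of the phagocyte oxidase had a median of -0.27, and of these Rac2 was at 51.1 to 57.7 CPM in control and 39.6 to 48.2 CPM in Lhx6-/- tissue (log2 fold change -0.27, adjusted p = 0.288 in edgeR). Cyba, the membrane partner of Cybb, overlapped between the groups and had a log2 fold change of -0.06 (interval -0.27 to 0.14). Of 12 genes of Fc receptor and ITAM signalling, 10 were below 0, with a median of -0.18. Blnk and Syk, adaptor and kinase of this signalling and its genes of highest CPM, had log2 fold changes of -0.26 and -0.24.

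**Figure D4:**
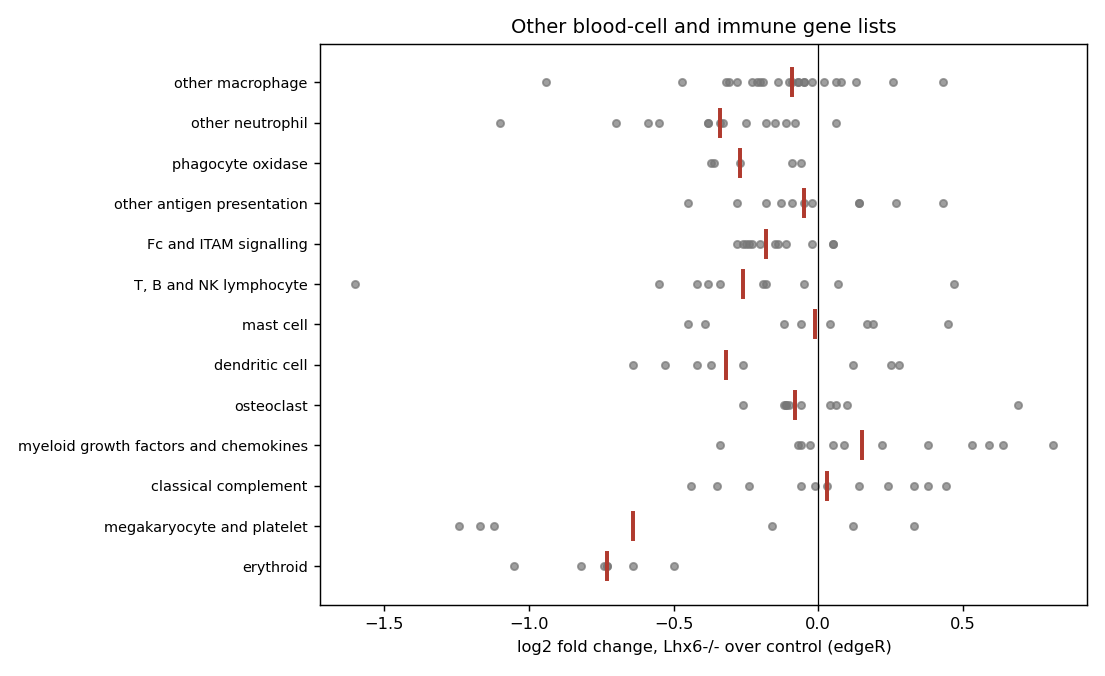
Log2 fold change, Lhx6-/- over control (edgeR), of single genes (grey points) in 13 lists of related immune and blood cell genes, with the median of each list as a red bar. The erythroid list has the lowest median at -0.73, and the macrophage, mast cell, osteoclast and complement medians lie between -0.09 and 0.03.

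Lymphocyte and dendritic cell genes were at low levels in both genotypes, and mast cell genes summed to more. Of 12 genes of T, B and NK cells 10 were tested, and the 12 summed to 25.0 to 31.1 CPM in control and 21.3 to 23.3 CPM in Lhx6-/- tissue. Nkg7, a granule protein of NK and cytotoxic T cells, met the rule, with 0.355 to 0.643 CPM in control and 0.121 to 0.229 CPM in Lhx6-/- tissue (log2 fold change -1.60, interval -2.97 to -0.22, adjusted p = 0.423 in edgeR). These levels lay near the floor, and no other gene of this list met the rule. Dendritic cell genes summed to 10.2 CPM in the lowest control and 9.28 CPM in the lowest Lhx6-/- library, and mast cell genes to 59.9 to 77.6 CPM over the 6 libraries. None of the 8 tested genes of either list met the rule, and the genes of highest CPM were Zbtb46 (log2 fold change 0.12) and Itgax (-0.26) for dendritic cells and Kit (-0.12) and Tpsb2 (0.17) for mast cells. Of 11 further genes of antigen presentation, 4 were above and 7 below 0, and 0 met the rule, with Lgmn at -0.02 and Ifi30 at -0.13. The megakaryocyte genes, 6 in all, were at 0.118 to 4.89 CPM in the control libraries, and 0 met the rule, with Itga2b at a log2 fold change of -0.16 and Ppbp at -1.12 (interval -2.50 to 0.26).

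Signals that attract or feed myeloid cells had estimates on both sides of 0. Of 12 growth factor and chemokine genes, 8 were above 0, beside 9996 of the 20114 tested genes, with a median of 0.15. Of these 12, Ccl2, Ccl7, Ccl8, Cxcl1, Cxcl5 and Cxcl10 lay near the floor, at no more than 0.645 CPM in any library. None met the rule. Cxcl12, the chemokine that holds haematopoietic cells in their niches, was at 156, 157 and 163 CPM in control and at 226, 184 and 208 CPM in Lhx6-/- tissue. It did not overlap between the groups, and its log2 fold change was 0.38 (interval 0.20 to 0.56, adjusted p = 0.0984 in edgeR). Tgfb1 was at -0.03 on that scale. Of 11 further genes of the classical complement pathway, C1s1, the protease that C1q recruits, and Serping1, its inhibitor, had the highest CPM, and 0 of the 11 met the rule. Both were higher in each Lhx6-/- library than in any control library, with log2 fold changes of 0.44 (adjusted p = 0.104 in edgeR) and 0.38 (adjusted p = 0.0853 in edgeR), while the C1q chains had estimates below 0.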

How the data were processed

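RNA of 6 libraries, 3 control and 3 Lhx6-/-, was sequenced with single-end reads. After trimming, the authors aligned reads with STAR 2.6.1d against mm10, obtained gene-level values in Partek, and deposited estimated counts that were not normalized. The counting settings, strand and gene annotation were not given in the sources used here. Every gene of the table reached at least 10 counts in some library. A second deposited table holds the authors' group means (1 + CPM) and their own comparison. Its ratios, fold changes and p-values were not used, and its means served only to check the order of the gene names, with a largest relative deviation of 8.56e-08.

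Depth was 60132323 to 76157433 estimated counts per library. Counts were rounded and tested with edgeR 4.0.16 (R 4.3.3; TMM, expression filter, robust quasi-likelihood, genotype alone, two-sided), with Benjamini-Hochberg adjustment over 20114 genes. The rule of 1.5-fold and unadjusted p under 0.05 follows the methods of the study. The common biological coefficient of variation came to 0.202, and each standard error was obtained as |log2 fold change| over the square root of the F statistic. With 3 libraries per group their spread, more than depth, limited precision, and no pair of libraries was a duplicate. An exact permutation test of 3 against 3 cannot go below p = 0.1. Lengths are the exon unions of GENCODE vM21, which matched 23061 of 23594 genes by symbol, chromosome and start. The code was tested on simulated counts.

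The genes and lists were chosen with earlier results of these data known, and adjusted p-values are over all tested genes. All 38 genes are named. Library values are given for those that met the rule, had the smallest p of their role or were among the 3 highest per length of their role. Related genes are named where they met the rule, and otherwise as the 2 of highest CPM in a list. Some genes that this would name are not reported here. Mmp9, Xist, Col1a1 and Amelx were named after their values were seen. Alternatives were DESeq2 1.42.0, limma 3.58.1 (trend, and voom with sample weights), scaling by upper quartile or by total count, 2 other filters, a replicate block, leaving out each library, and thresholds of 2-fold and p under 0.01.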

Additional observations from a re-analysis of the deposited data

How the results depend on the processing

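Over 14 alternative fits, 466 of 490 log2 fold changes of single leukocyte genes kept their direction and their side of an adjusted p of 0.05. All of these genes but S100a9 were above 0.05 in the main fit, so the count mostly shows that they stayed there. S100a9 itself changed side in 3 of 14 fits. S100a9 met the rule in 14 of 14 fits, with log2 fold changes from -1.10 to -0.80. S100a8 met it in each of these fits except that without Lhx6-/- replicate 2. The number of leukocyte genes meeting the rule was 4 with limma voom, 0 at 2-fold, 1 at p under 0.01 and 1 to 7 with 1 library left out. The number with an adjusted p under 0.05 was 2 with DESeq2 and 0 to 2 with 1 library left out, and the number without overlap was 10 to 16 with 1 library left out, where non-overlap is easier to reach (22.2% to 29.6% of all tested genes, against 15.5%). With 1 library left out, the median log2 fold change over all 35 genes ran from -0.23 to -0.05, over the macrophage genes from -0.22 to -0.04 and over the neutrophil genes from -0.66 to -0.17, which was -0.59 with limma voom. Over all tested genes the rule was met by 350 at 2-fold, 292 at p under 0.01 and 607 to 968 with 1 library left out, and an adjusted p under 0.05 was reached by 315 in DESeq2 and by 12 to 127 with 1 library left out. Fewer samples enter the fits without a library; for the other changes the cause was not tested.

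The methods of the study name 3 pairs of samples, but the labels do not say which libraries belong together, and the main test used no pairing. The sample titles number the control and the Lhx6-/- libraries 1 to 3, but same-numbered libraries did not deviate together (correlations of 0.0256, -0.0288 and -0.0314), so these numbers do not show a pairing. The deposited table numbers the Lhx6-/- libraries 2, 3 and 4 instead, and by those numbers the shared pairs, 2 and 3, had correlations of -0.0616 and -0.0065. With the title number as a replicate block, 134 genes had an adjusted p under 0.05, and S100a9 was still the leukocyte gene among them.

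Signs turned for 10 genes with estimates near 0, none of them called. With 1 library left out, the log2 fold change ran from -0.13 to 0.25 for Adgre1, from -0.22 to 0.01 for C1qa, from -0.00 to 0.20 for Cd74, from -0.04 to 0.21 for Ctss, from -0.05 to 0.19 for Cx3cr1, from -0.49 to 0.03 for Elane, from -0.06 to 0.22 for H2-Aa, from -0.12 to 0.01 for Laptm5, from -0.11 to 0.03 for Lcp1 and from -0.02 to 0.04 for Mrc1. With limma voom, Cx3cr1 was at -0.00 and H2-Aa at -0.05. Ccl3, with 2 to 16 counts per library, did not pass the expression filter.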
